A study of Arabidopsis thaliana with 2 samples.

Results

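The CC-type glutaredoxins are a class of small redox proteins found only in land plants, and this account follows 10 of their genes in the Arabidopsis thaliana mutant cer6-2. The genes were taken from a fixed list of locus names (AT1G28480, which is GRX480, AT2G47870, AT2G47880, AT3G62930, AT3G62950, AT3G62960, AT1G03020, AT1G06830, AT2G30540 and AT5G18600). A gene was measured if the array had a feature annotated with that gene alone. This held for 8 of the 10, out of 9236 genes measured in all, and AT2G47870 and AT1G03020 have no value here. The genes were selected on family membership, but the family was chosen for this account by the ratios of cer6-2 over Ler-0 seen in these same arrays. Their values are therefore a description and not a test.

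The study compared cer6-2, a mutant with too little surface wax, with its wild type, the accession Ler-0. Untreated plants of both genotypes grew at 22 °C and 80% relative humidity in a cycle of 16 h light and 8 h dark, and RNA came from their leaves and stems at an age given as 15 days in one label and as 2 weeks in another. RNA from 20 pooled plants per genotype was hybridised to a pair of two-colour arrays. Array 1 held cer6-2 in Cy3 and Ler-0 in Cy5, and array 2 held them with the dyes exchanged. There was 1 pool per genotype, so no replicate checks the genotype difference and no p-value is given. The mutated gene has no named feature here and could not check the labels. The values are ratios without levels, so the labelled tissue could not be checked against its marker genes.

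Glutaredoxins use glutathione to reduce disulfide bonds or to act on glutathione-modified proteins. The CC-type class, named for the pair of cysteines in its active site, is also known as the ROXY family. Several of its members bind TGA transcription factors in the nucleus and repress genes that these factors activate, and GRX480 in this way represses jasmonate-induced genes such as the defensin gene PDF1.2. Other members report the nitrogen status of the plant. AT1G06830 and AT2G47880 are known as CEPD1 and CEPD2, polypeptides that move from shoot to root when roots are short of nitrogen and raise nitrate uptake there. The other genes of the list were not sorted by this role, so this pair does not stand for the nitrogen signal as a whole.

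Every value below is a log2 ratio of cer6-2 over Ler-0, so 1 is a 2-fold higher and -1 a 2-fold lower level in cer6-2. The direction is likely and not settled, because the sources give the dyes but not which dye was the numerator. Cy5 over Cy3 was assumed, and under the opposite convention higher and lower change places throughout. A mean is over both arrays and its SD is the spread between them (n = 2 technical measurements), and plant-to-plant variation is not part of it. Because the dyes were exchanged, a dye effect of a gene would widen this spread but cancel in the mean. Calls follow a rule of size: both arrays had to show a ratio of 2-fold or more in 1 direction.

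AT3G62950 was called higher and AT2G47880 was called lower in cer6-2, and both lay among the most extreme of the 9236 genes measured. The 13258 features without a matched gene were not ranked. In RNA from leaves and stems, a different share of cells expressing a gene and a different amount of RNA per cell cannot be told apart. The other 6 measured genes of the list were not called. Over all 9236 genes the same rule called 1.32%, with 0.595% called higher and 0.725% called lower. Both genes also passed 3-fold in each array, as did 0.336% of all genes (0.119% higher and 0.217% lower). The list was chosen with this contrast in view, so nothing is read from 2 called of 8 against these shares.

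AT3G62950 read 2.08 in array 1 and 2.07 in array 2. Its mean of 2.07 ± 0.0093 is a 4.21-fold higher level in cer6-2 and the 9th highest mean of all genes measured. The arrays differed by 0.013 on the log2 scale for this gene, and 96.4% of all genes differed by more.

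AT2G47880 (CEPD2) read -2.75 in array 1 and -1.81 in array 2. The mean was -2.28 ± 0.67, a 4.87-fold lower level in cer6-2 and the 8th lowest of all genes measured. Here the size was less certain, since the ratio was 6.74-fold lower in array 1 and 3.51-fold lower in array 2. Both arrays placed it more than 3-fold below Ler-0. The means of AT3G62950 and AT2G47880 lay 4.36 apart on the log2 scale.

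AT1G06830 (CEPD1), which acts together with AT2G47880 in the nitrogen signal from shoot to root, was the uncalled gene nearest to the threshold on the lower side. It read -1.47 in array 1 and -0.41 in array 2, with a mean of -0.94 ± 0.76. Array 1 alone would have placed it past 2-fold and array 2 would not. Only 6.52% of all genes differed more between the arrays, so the direction was shared and the size was not.

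On the higher side AT2G30540 and AT5G18600 had the largest means among the uncalled genes. AT2G30540 read 0.05 in array 1 and 0.98 in array 2, with a mean of 0.52 ± 0.66. The ratio thus rested almost wholly on array 2. AT5G18600 had nearly the same mean, 0.52 ± 0.04, but from closely matching readings of 0.55 and 0.49. Each mean is a 1.43-fold higher level, but the arrays gave 1.46-fold and 1.40-fold for AT5G18600 and 1.04-fold and 1.98-fold for AT2G30540.

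The remaining genes stayed closer to 0. AT3G62930 read 0.08 in array 1 and 0.78 in array 2, with a mean of 0.43 ± 0.49. GRX480, the TGA partner induced by salicylic acid, read -0.20 and -0.40, with a mean of -0.30 ± 0.14. AT3G62960 read -0.03 and -0.16, with a mean of -0.10 ± 0.09, the ratio nearest to 0 in the list. For AT3G62930 the SD between arrays was larger than the mean itself.

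**Figure D1:**
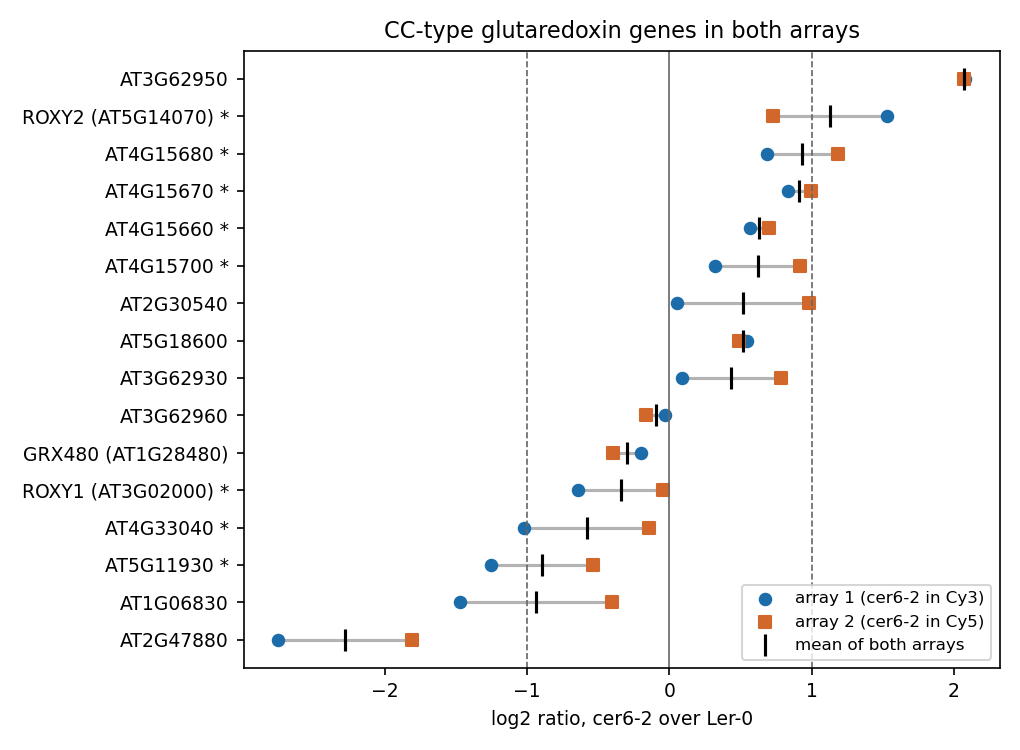
Log2 ratio of cer6-2 over Ler-0 (x axis) for the 16 measured CC-type glutaredoxin genes (y axis, sorted by mean), with circles for array 1, squares for array 2 and bars for the mean. Asterisks mark CC-type genes outside the list of 10, and dashed lines mark 2-fold; AT3G62950 at 2.07 and AT2G47880 at -2.28 are past them in both arrays.

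The CC-type class has 11 further genes, and 8 of these were measured. None of the 8 was called at 2-fold. ROXY2, which acts with ROXY1 in anther development, had the highest mean, with 1.53 in array 1, 0.73 in array 2 and a mean of 1.13 ± 0.57. AT5G11930 had the lowest mean, -0.90 ± 0.51, from -1.26 in array 1 and -0.54 in array 2. AT4G33040 read -1.02 and -0.14, and ROXY1, known for its part in petal development, read -0.65 and -0.04. These 3 genes, the ones with means below 0, were all lower in array 1 than in array 2. AT1G06830 and AT2G47880 showed the same order, and GRX480 and AT3G62960 the reverse.

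With both sets together, 16 of 21 CC-type genes were measured, 9 with a mean above 0 and 7 below. At a threshold of 1.5-fold in both arrays, 5 of the 16 (31.2%) were called, 4 higher and 1 lower. Of all genes 3.7% passed that threshold, 1.8% higher and 1.91% lower. Of the 8 genes outside the list of 10, 3 passed it, all higher. The 5 were AT3G62950, ROXY2, AT4G15670, AT4G15680 and AT2G47880. The median of the class was 0.48 and that of all genes was 0, but array 1 alone put the class at 0.07 and array 2 alone at 0.59. The median for the list of 10 was 0.17, with 0.01 in array 1 and 0.16 in array 2. The sizes of the means, taken without their sign, had a median of 0.63 in the class and of 0.15 over all genes. The family was chosen by its ratios in these arrays, and the class counts were added after the data had been seen. Nothing is therefore read from these medians or from the 1.5-fold shares against those of all genes.

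The arrays gave the same sign for each of the 16 CC-type genes, including those near 0. Over all 9236 genes 43.5% had the same sign in both arrays. Among the rest were 262 genes with a ratio of exactly 0 in an array, and no measured CC-type gene had such a ratio. Of the genes with a sign in both arrays, 4019 had the same sign and 4955 had opposite signs. This comparison rests on the columns having been deposited without a change of sign. Had 1 column been turned beforehand, all 16 would have opposite signs. It is a description of how the class read on the arrays, and related genes with similar sequences can share signal, so the 16 are not independent. For 11 of the 16 genes array 2 gave the higher ratio (68.8%), as it did for 55.5% of all genes.

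**Figure D2:**
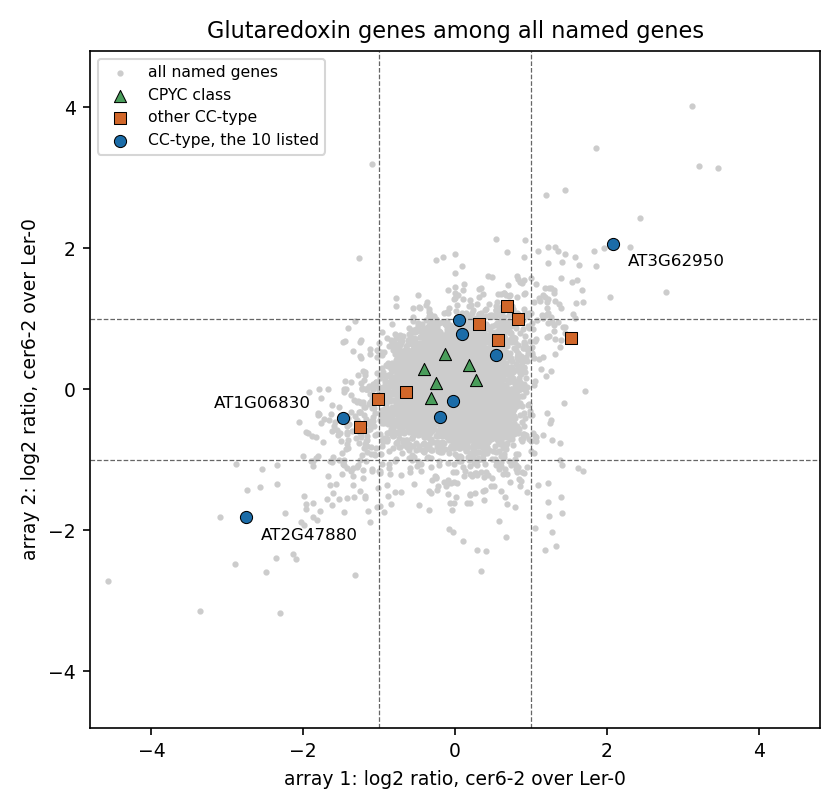
Log2 ratio in array 1 (x axis) against array 2 (y axis) for all 9236 genes (grey), the list of 10 (circles), other CC-type genes (squares) and the CPYC class (triangles), with dashed lines at 2-fold. The CC-type genes run from the lower left (AT2G47880) to the upper right (AT3G62950), all in the quadrants where both arrays have the same sign.

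Glutaredoxins of the other classes were set beside the CC-type genes. The CPYC class holds the classical glutaredoxins that reduce disulfides, and the CGFS class holds proteins linked to iron-sulfur clusters. Of 10 genes in these classes 6 were measured, all of the CPYC class, and none was called at 2-fold or at 1.5-fold. With 1.32% and 3.7% of all genes called at these thresholds, 0 of 6 is near the background. Their means ran from -0.23 ± 0.14 for AT2G20270 to 0.27 ± 0.11 for AT1G77370, with a median of 0.06 that was -0.19 in array 1 and 0.21 in array 2. GRXC1 stood at 0.21 ± 0.10 and GRXC2 at -0.08 ± 0.24. The arrays had the same sign for 3 of the 6, near the 43.5% of all genes. The SD over genes was 0.20 for these 6 and 1.03 for the 16 CC-type genes, against 0.35 over all genes. It was 1.27 for the measured genes of the list of 10 and 0.78 for the other CC-type genes. The CC-type family was chosen by its ratios in these arrays, so nothing is read from its wider spread.

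**Figure D3:**
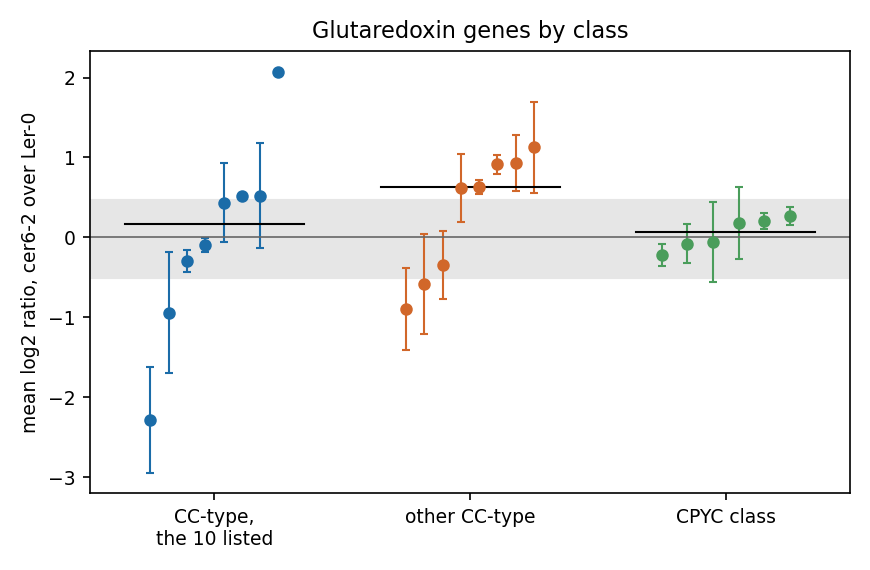
Average over both arrays of the log2 ratio, cer6-2 to Ler-0 (y axis), for each measured gene of 3 sets of glutaredoxins (x axis), with error bars for the SD between the 2 arrays, a line for each set's median and a grey band for the middle 90% of all genes. The CPYC genes lie inside the band, from -0.23 to 0.27, while the CC-type sets reach from -2.28 to 2.07. The CC-type family was chosen by its ratios in these arrays.

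The class was also set out by position along the chromosome. These groupings were made after the values had been seen. AT4G15660, AT4G15670, AT4G15680, AT4G15690 and AT4G15700 lie side by side on chromosome 4 and are known as glutaredoxins induced by nitrate. AT4G15690 has no value here. AT4G15680 read 0.69 in array 1 and 1.18 in array 2, with a mean of 0.93 ± 0.35. AT4G15670 read 0.83 and 0.998, with a mean of 0.91 ± 0.12, so that it missed the 2-fold threshold in both arrays. AT4G15660 and AT4G15700 had means of 0.63 ± 0.09 and 0.62 ± 0.42. All 4 measured genes of the cluster were above 0 in both arrays, with a median of 0.77, and the 12 measured CC-type genes elsewhere had a median of -0.20. Of all 9236 genes, 2134 were above 0 in both arrays. The cluster was set apart with its values known, so nothing is read from these counts and medians. Whether the probes of these adjacent paralogs share signal was not tested, so the 4 values may not be separate measurements.

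The stretch on chromosome 3 was less uniform. AT3G62930, AT3G62950 and AT3G62960 lie within 4 neighbouring genes, and AT3G62950 is directly next to AT3G62960. Yet AT3G62950 stood at 2.07 and its neighbour at -0.10, a difference of 2.17 on the log2 scale. The difference between AT3G62950 and AT3G62930 was 1.64. Probe sequences are not among the data used here, so how far the probes of these paralogs share signal was not tested.

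AT2G47880 lies next to AT2G47870, the CC-type gene without a value, and the gene table also places AT2G47885 within the span of AT2G47880. A probe for one of that overlapping pair may read the other, which was not tested. AT2G47890, the gene after that pair, read -1.06 and -0.93, with a mean of -0.99 ± 0.09, so it fell just short of the threshold in array 2. cwINV6 (AT5G11920), directly beside the CC-type gene AT5G11930, read -0.79 and -1.02, with a mean of -0.91 ± 0.16. Among 17 measured genes of other families within 2 loci of a CC-type gene, 0 were called, and with 1.32% called over all genes this count does not set the neighbours apart.

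**Figure D4:**
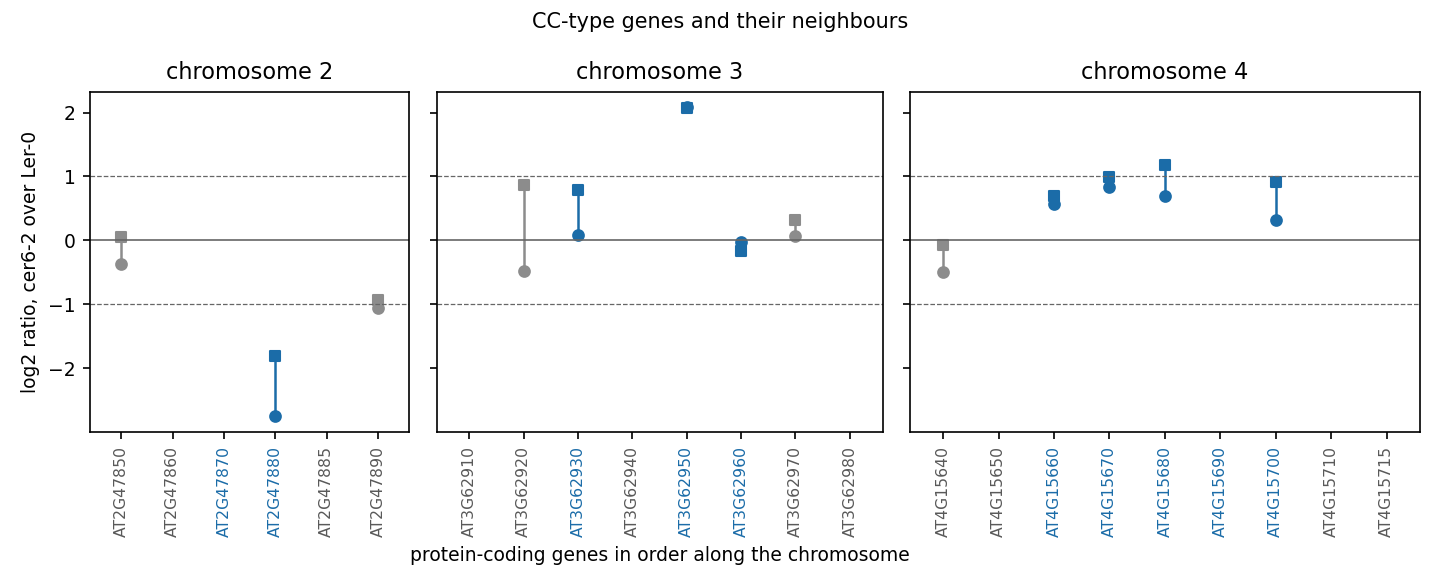
Log2 ratio of cer6-2 over Ler-0 (y axis) for protein-coding genes in their order along 3 chromosome stretches (x axis, spacing not to scale), with circles for array 1, squares for array 2, CC-type genes in blue and other genes in grey. Names without points have no value; the 4 genes on chromosome 4 sit together between 0.62 and 0.93 in their means, while AT3G62950 at 2.07 stands apart from AT3G62960 at -0.10.

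Partners and targets of the class were thinly covered. None of the 16 TGA factors and corepressors listed, and none of the 8 thioredoxins h, has a named feature. Of 15 jasmonate and ethylene defence genes 2 were measured. PDF1.2, the defensin gene that GRX480 can repress, was called lower, with -2.74 in array 1, -1.44 in array 2 and a mean of -2.09 ± 0.92. The thionin gene THI2.1 was not called, with a mean of -0.07 ± 0.39 and opposite signs in the arrays. GRX480 and PDF1.2 were thus both below 0 in both arrays, GRX480 by far less and without a call. Whether their values are related was not tested.

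Of 16 genes listed for nitrate uptake, assimilation and their regulation 2 were measured, both transcription factors, and neither was called. AT1G68670 stood at 0.28 ± 0.38 and AT1G25550 at 0.19 ± 0.30. The nitrate transporter gene NRT2.5 (AT1G12940) was not on the list and was looked up after the values had been seen. It was not called, with -1.07 in array 1, -0.52 in array 2 and a mean of -0.79 ± 0.39. Roots were not sampled.

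Type II peroxiredoxins, peroxide-reducing enzymes that can take their electrons from glutaredoxins, had 2 of 5 genes measured. AT1G60740 was called higher, with 3.22 in array 1, 3.17 in array 2 and a mean of 3.19 ± 0.03. AT3G52960 stood at -0.28 ± 0.12. The glutathione reductases GR1 and GR, which keep glutathione in its reduced form, stood at 0.04 ± 0.0035 and 0.10 ± 0.95, and the arrays had opposite signs for GR. Of the 4 genes listed for glutathione synthesis and reduction these 2 were measured.

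Likeness to a called gene was measured as the distance between the pairs of array values on the log2 scale, over 2 arrays only. The 3 genes nearest to AT3G62950 were AT1G21400, which encodes part of the enzyme complex that oxidises branched-chain keto acids, at a distance of 0.13, MGL, methionine gamma-lyase, at 0.23, and AT4G36850 at 0.27. Those nearest to AT2G47880 were AT4G30650 at 0.35, PDF1.2 at 0.38 and AT5G09480 at 0.47. With 2 arrays of the same pools this measure shows only that the ratios were similar.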

How the data were processed

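Both arrays were Agilent Arabidopsis 2 two-colour arrays, labelled with a direct labelling kit, per the labels' protocols. For each of 22575 features the authors deposited a value per array, taken here to be a log10 ratio, Cy5 over Cy3. That log base is inferred from the limit of the values, 2 in size. How the scans were extracted, background-corrected, dye-normalised and filtered is not given in the sources used here. Signal levels are not given either, so dim features could not be left out, and the number of arrays limits the precision.

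Values were converted to log2 and array 1 was multiplied by -1. Gene names came from the platform annotation, updated by gene identifier with a TAIR10.1 gene table. Of 9375 annotated features 9317 matched 1 gene each. Features of a gene were averaged (Python 3.11.15, pandas 2.3.3). The turning and calling steps were tested on simulated data. The members, lists and rules were chosen with earlier results of these data known. The text names all members, the extreme and the called genes of each list, other CC-type genes chosen after their values were seen, and the 3 genes nearest to each called member. Outside these rules it also names GRXC1, GRXC2 and NRT2.5. Of the measured neighbours outside the family it gives values for AT2G47890 and cwINV6, which had the lowest means. Alternatives covered the threshold, each array alone, centring, discordant features, averaging, the reading of the sign and the log base.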

Additional observations from a re-analysis of the deposited data

How the results depend on the processing

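The calls of AT3G62950 and AT2G47880 were the same at 1.5-fold, at 3-fold, by the mean of both arrays, after centring and with the median of features. For all genes 1.5-fold gave 342 calls (166 higher, 176 lower), 3-fold gave 31 (11 and 20), the mean of both arrays 212 (91 and 121), and all features 285 (125 and 160), against 122 (55 and 67). Either array alone called 2 to 3 members, 1 higher and 1 to 2 lower, and AT1G06830 was the added one, in array 1. By single array the calls over all genes ran from 329 to 369, from 114 to 169 higher and from 200 to 215 lower, and the median of the members from 0.011 to 0.163, against 0.17. Without features that differed over 2-fold between arrays that median was 0.43, because AT1G06830 drops out, and 15 CC-type genes remained, each with the same sign in both arrays.

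If the columns were turned before they were deposited, members called were 0, higher 0, lower 0 and opposite 2, and AT2G47880 stood at 0.47 and AT3G62950 at -0.0066. All genes called were then 15 (2 higher, 13 lower), and 0 CC-type genes had the same sign or were called at 1.5-fold. Read as log2, the table gave 0 members called, 0 higher and 0 lower, a member median of 0.051, 0 genes called (0 and 0), and 1 CC-type gene at 1.5-fold. These changes follow from the construction of each reading. Counts for the whole CC-type class were added after the data had been seen. No paired analysis was possible because each genotype had 1 pool, which the arrays share.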
